A study of Homo sapiens with 4 samples.

Results

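The genes described here are 51 components and targets of the Wnt pathway, taken as the probes that are not controls and whose gene name in the array files is on a list of these 51 symbols. They were 51 of the 30986 gene names on the array and were represented by 86 probes, with 1 probe for 26 genes and several for 25. They comprised 14 ligands, 12 receptors, 6 secreted inhibitors, 6 intracellular proteins, 4 nuclear factors and 9 target genes. The brightest probe of each gene was taken as its leading probe, and the other tested probes are given beside it or where the probes of a gene are compared.

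RNA was compared between the vector control vec and shpkp3-2, a clone with knockdown of PKP3, both derived from HCT116, an established colorectal carcinoma cell line. The question was how the transcriptome differs after loss of plakophilin3 (PKP3), a protein of desmosomes, the junctions that hold epithelial cells together. The vec clone carried a stably transfected vector and the shpkp3-2 clone a stably transfected plasmid encoding an shRNA against plakophilin3, both under drug selection, which the sample labels name as puromycin and the methods of the study as blasticidin. Each clone was measured on 2 single color Agilent arrays, numbered 1 and 2, with the RNA of the arrays numbered 1 collected on one occasion and that of the arrays numbered 2 on another. Each condition is a single clone, so that an effect of the hairpin and a difference between clones cannot be told apart, and the p-values measure only the spread between RNA collections. All arrays lay on one slide, with each clone at its own positions, and the position on the slide and the clone cannot be told apart either.

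Wnt proteins are secreted ligands that bind Frizzled (FZD) receptors together with the co-receptors LRP5 and LRP6. Without a ligand, a complex that holds APC, AXIN1, AXIN2 and GSK3B marks beta-catenin for degradation, and with a ligand the DVL proteins help to inactivate that complex, so that beta-catenin reaches the nucleus and binds the TCF and LEF factors on target genes. Most colorectal carcinomas carry a mutation that switches the pathway on. In HCT116 the mutation lies in CTNNB1, the gene of beta-catenin itself, which makes the protein resistant to degradation. Several targets, AXIN2, NKD1 and RNF43 among them, encode proteins that restrain the pathway, and their RNA is commonly read as a sign of its activity.

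The intensity of a spot is given in arbitrary units after scaling every array to the same 75th percentile, and the log2 levels are relative to that percentile. Different probes bind with different strength, so that the level of one gene is not set against that of another. The 75th percentile itself was 499 on vec 1 and between 374 and 381 on the other arrays, the summed intensity lay between 115635392 and 130032824, and 60.5% to 63.5% of the spots were well above background by the flag of the scanner software. PKP3, the target of the hairpin, had scaled intensities of 17067 and 24461 in vec against 3680 and 3358 in shpkp3-2, a log2 fold change of -2.54 (SE 0.23, limma adjusted p = 0.0188), which passed under 12 of 14 alternatives. In bulk RNA a lower signal from fewer expressing cells and one from less RNA in every cell cannot be told apart, for this gene and for all those below. Of the colon epithelial markers, 6 of 7 exceeded the background on all arrays and VIL1 on 1 shpkp3-2 array only. Markers of other cell types were well above background on all arrays for 1 of 4 fibroblast genes (COL1A1), 0 of 2 endothelial genes and 1 of 2 genes of stratified epithelia (KRT14), while PECAM1, CDH5, KRT5, COL1A2, COL3A1 and PDGFRB were well above background on no array. Of the leukocyte genes, CD3E exceeded the background on every array (scaled intensities of 24.4 and 23.7 in vec against 27.0 and 19.3 in shpkp3-2) and PTPRC on none. Over the whole lists of the other 3 types the summed unscaled intensity was 195 and 111 in vec against 119 and 138 in shpkp3-2 for fibroblasts, 19.8 and 12.8 against 14.8 and 13.4 for endothelium, and 83.7 and 100.02 against 91.8 and 72.6 for stratified epithelia. None of the markers tested had a limma adjusted p below 0.436.

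By the leading probe, 39 of the 51 genes were well above background on all 4 arrays, 9 on none and 3 on some. The 9 genes whose leading probe was above background on no array were the ligands WNT2 and WNT5A, the receptor FZD10, the inhibitors DKK4, SFRP1 and WIF1, the nuclear factor LEF1 and the targets ASCL2 and LGR5. WNT5A, for example, had scaled intensities of 1.66 and 2.14 in vec against 2.21 and 1.96 in shpkp3-2, and LGR5, a receptor that marks intestinal stem cells, had 3.59 and 2.71 against 2.53 and 2.67. ASCL2, a transcription factor of the same stem cells, lay between 2.43 and 7.17 on the 4 arrays. For comparison, the lowest unscaled intensity that was well above background lay between 8.41 and 9.74 on the 4 arrays. In 8 of the 9 genes no other probe was above background either, and their values are bounds. In WNT2 a second probe was above background on vec 1 only, with scaled intensities of 11.3 and 2.37 in vec against 2.36 and 2.05 in shpkp3-2. APC, the scaffold of the degradation complex, was above background on vec 1 and shpkp3-2 2 only, with 13.3 and 3.16 in vec against 5.73 and 12.3 in shpkp3-2. These 10 genes did not enter the test, which asked for a clone with both of its arrays well above background and so kept 41 of the 51 genes.

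**Figure D1:**
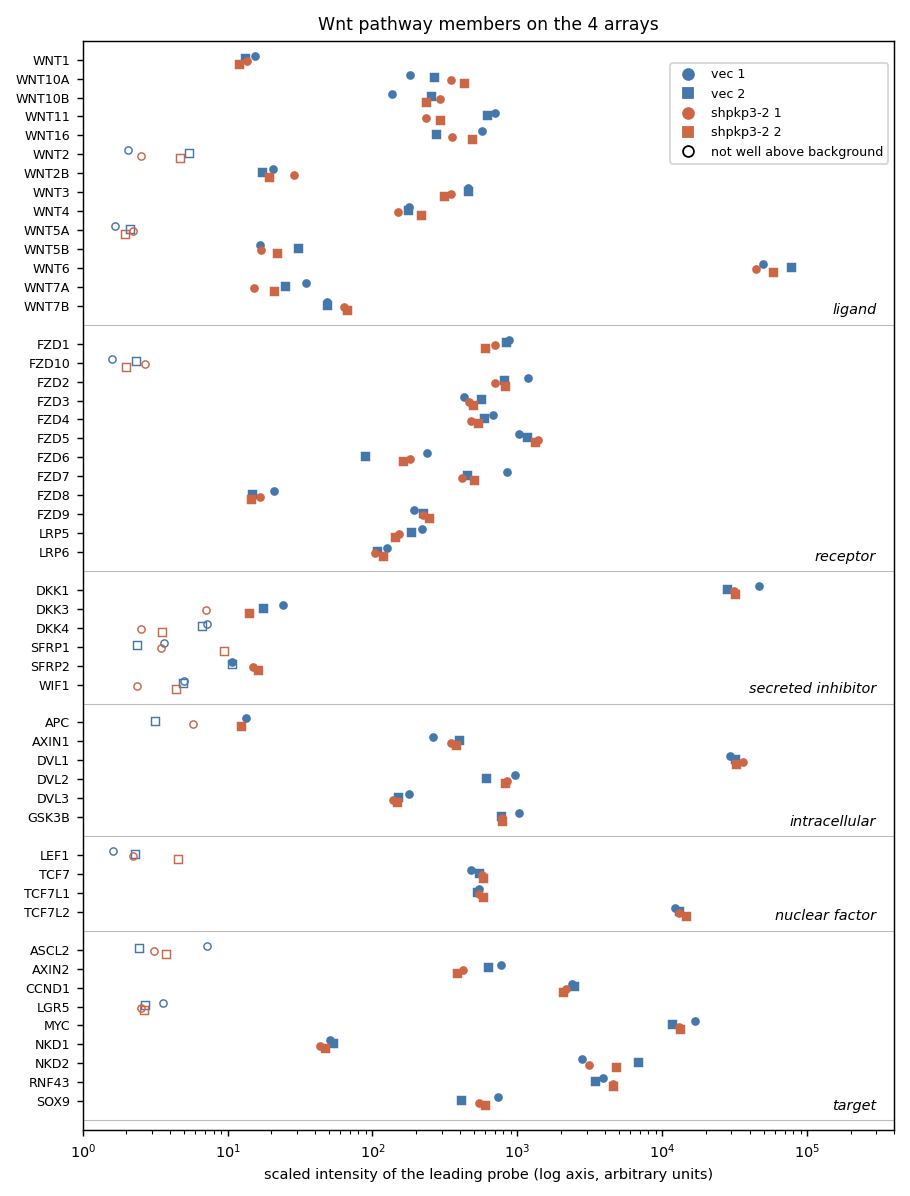
Scaled intensity of the leading probe of each of the 51 genes on the 4 arrays (x axis, log scale, arbitrary units; y axis, genes grouped by role). Blue points are vec and orange points shpkp3-2, circles are arrays 1 and squares arrays 2, and open points are not well above background. The 9 genes with 4 open points are WNT2, WNT5A, FZD10, DKK4, SFRP1, WIF1, LEF1, ASCL2 and LGR5. For most of the others the colours lie close together or overlap, and horizontal position should be compared within a gene only.

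Across the 41 genes tested, the median log2 fold change, shpkp3-2 against vec, was -0.08 with 18 positive and 23 negative values and a range from -1.32 to 0.82, beside a median of 0.06 over the 20244 genes tested on the array. Over all 20244 genes, 11810 values were positive and 8434 negative, and the sign counts given below for parts of the pathway stand beside that split. The sign of the median of the 41 genes was not settled, since it was 0.0034 with normexp background correction, 0.03 without vec 1 and 0.02 without shpkp3-2 1. The log2 fold change was between -1 and 1 for 39 of the 41 genes (95.1%), beside 97.1% of all genes tested. The standard errors lay between 0.17 and 0.45, and the number of arrays limits what could be called. The smallest log2 fold change that passed the test among all genes was 1.42 in size, larger than that of any of the 41. None of the 41 passed the limma test at an adjusted p of 0.05, in either direction, where 0.277% of all genes tested passed as higher and 0.153% as lower. At an unadjusted p of 0.05, 2 of the 41 genes were higher (4.88%) and 5 lower (12.2%), beside 7.63% and 4.52% of all genes. These counts include SFRP2 as higher and DKK3 as lower, each of which entered the test only through the clone in which it was higher. Over the 39 genes above background on all arrays they were 1 (2.56%) and 4 (10.3%), beside 6.83% and 3.94% of all such genes. A rule of a 2-fold difference or more on each shpkp3-2 array against the mean of vec was met by 0 of the 41 genes as higher and by 1 as lower, WNT11 (2.44%), beside 1.24% and 0.632% of all genes. At 1.5-fold, 1 gene was higher, WNT10A (2.44%), and 2 were lower, WNT11 and AXIN2 (4.88%), beside 4.28% and 2.41%. Both shpkp3-2 arrays lay above both vec arrays for 8 of the 41 genes (19.5%, beside 28.4% of all genes) and below them for 11 (26.8%, beside 17.2%), or for 7 (17.9%, beside 28.1%) and 10 (25.6%, beside 16.9%) when SFRP2 and DKK3 are left out in the same way. With median centring of the arrays these counts were 5 (12.2%, beside 20.8% of all genes) and 13 (31.7%, beside 23.0%). With quantile scaling they were 6 (14.6%, beside 23.5%) and 13 (31.7%, beside 21.3%). In all of these counts but that at an adjusted p of 0.05 the share of lower genes was thus above the share over all genes and that of higher genes below it, but the counts are small, the list was chosen with earlier results of these data known, and they are a description without a test. With 2 arrays against 2, an exact two-sided permutation test over the arrays reaches 0.33 at the lowest for any gene.

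**Figure D2:**
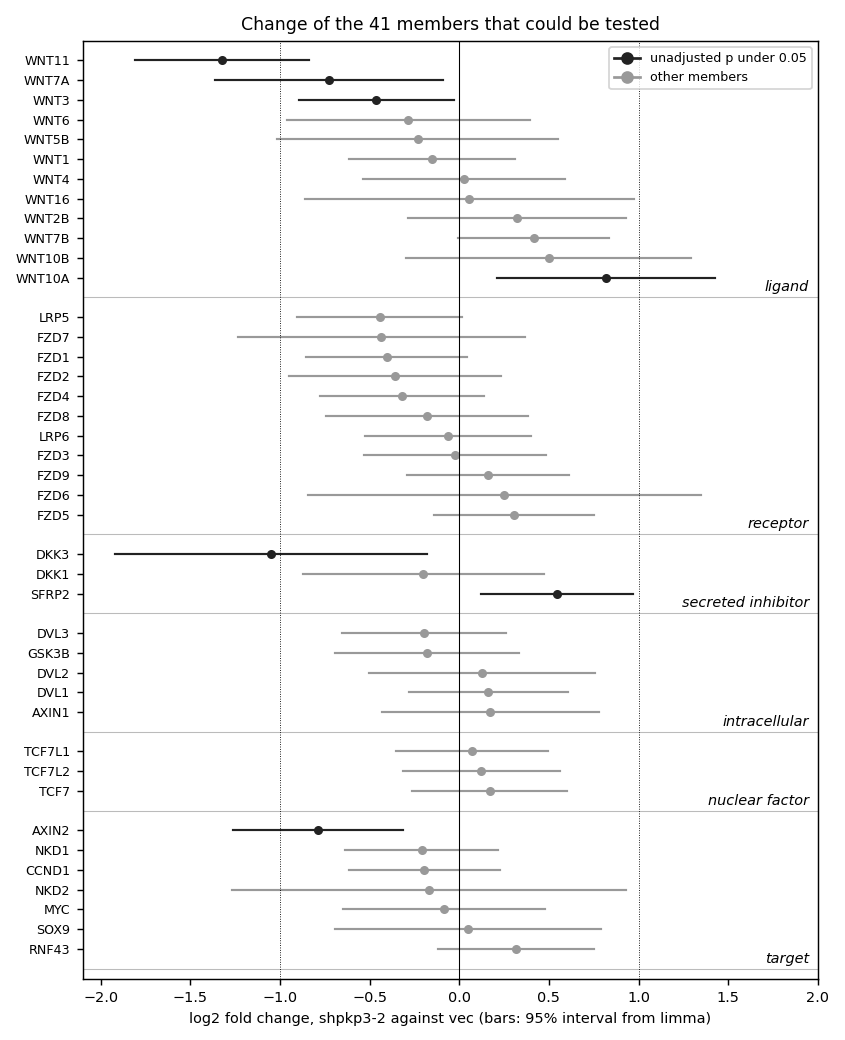
Log2 fold change, shpkp3-2 against vec, of the leading probe of the 41 genes tested (x axis; bars are 95% intervals from limma on 2 arrays per clone), grouped by role on the y axis. Dark points have an unadjusted p under 0.05, dotted lines mark a 2-fold difference, and WNT11 and DKK3 are the only points beyond them. Most intervals cross 0.

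The spread between arrays of one clone was larger in vec than in shpkp3-2. Over the 41 genes the median SD of the log2 level was 0.19 between the vec arrays and 0.11 between the shpkp3-2 arrays, close to the 0.20 and 0.12 over all genes. Of the 41, the receptor FZD6 had the widest spread in vec (SD 1.00), with scaled intensities of 236 and 88.3, while its shpkp3-2 arrays gave 182 and 163, between the vec values. NKD2, a paralog of the pathway inhibitor NKD1, gave 2792 and 6816 in vec (SD 0.91) and 3132 and 4800 in shpkp3-2. WNT16 gave 574 and 276 in vec against 352 and 486 in shpkp3-2. In all of these genes the 2 vec arrays differed more from each other than the mean of one clone from that of the other.

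Among the ligands, 12 of 14 were tested, with 6 positive and 6 negative log2 fold changes and a median of -0.06. The 4 ligands with an unadjusted p under 0.05 were WNT11, WNT7A and WNT3, all with lower values in shpkp3-2, and WNT10A, with higher values. WNT11 encodes a ligand best known for signalling that does not pass through beta-catenin. Its leading probe gave scaled intensities of 697 and 616 in vec against 236 and 291 in shpkp3-2. Both shpkp3-2 values were under both vec values, at 40.0% of the vec level on average. The log2 level was 0.68 ± 0.13 in vec and -0.64 ± 0.22 in shpkp3-2 (SD, n = 2 arrays each), and the log2 fold change of -1.32 (SE 0.20, 95% interval -1.81 to -0.84) did not pass the limma test (adjusted p = 0.0873). Within the RNA collections the difference was -1.56 and -1.08. With the RNA collection as a block, a fit that compares the arrays of the same collection, the adjusted p was 0.00399. Over the probes tested, the deviations of same-numbered arrays from their clone means correlated at -0.199. The lower adjusted p with the block is thus no evidence of agreement within collections, and its cause was not tested. WNT11 passed the test under 4 of 14 alternatives: the block, normexp background correction (-1.16, adjusted p = 0.0203), a trended and robust prior (0.0353) and the fit without vec 2 (-1.41, 0.0472). Its adjusted p ranged from 0.00399 to 0.344 over the 14, the highest without shpkp3-2 1.

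WNT11 was read by a second probe of a different sequence. The first 30 of the 60 bases of each probe are shown because the value for the gene rests on them, and the probe of WNT11 that leads is the first.
WNT11 leading probe: tttgctttttcttcctttgggatgtggaag
WNT11 second probe: cattgagctcgcccccaactatttgcttga
The second probe gave 63.0 and 70.9 in vec against 30.6 and 36.7 in shpkp3-2, a log2 fold change of -0.996 (SE 0.19, limma adjusted p = 0.150). The same order of the clones was thus seen with both probes, without overlap of the arrays.

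WNT7A and WNT3 are ligands that can act through beta-catenin. WNT7A gave scaled intensities of 35.0 and 24.7 in vec against 15.2 and 20.8 in shpkp3-2. The difference was uneven between collections, -1.20 in the first and -0.25 in the second, and the log2 fold change of -0.73 (SE 0.26) had an adjusted p of 0.356 in limma. With normexp background correction it was -0.14. WNT3 gave 458 and 455 in vec against 351 and 313 in shpkp3-2, so that its vec arrays were nearly equal, and its log2 fold change was -0.46 (SE 0.18, limma adjusted p = 0.383).

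WNT10A, a ligand of skin appendages and teeth that acts through beta-catenin, had the highest positive log2 fold change of the 41 genes. It gave 182 and 265 in vec against 349 and 430 in shpkp3-2. Both shpkp3-2 arrays lay above both vec arrays, by 1.76-fold on average, with a log2 level of -0.89 ± 0.38 in vec and -0.08 ± 0.21 in shpkp3-2 (SD, n = 2 arrays each). The log2 fold change was 0.82 (SE 0.25, 95% interval 0.21 to 1.43, limma adjusted p = 0.2998), and a second probe gave 0.66 (SE 0.23, limma adjusted p = 0.337). WNT10A passed the test under none of the 14 alternatives. WNT10B, its closest paralog, gave 137 and 255 in vec against 294 and 236 in shpkp3-2, so that the arrays overlapped. Of the remaining ligands, WNT7B (log2 fold change 0.42) had both shpkp3-2 arrays above both vec arrays, and in WNT1, WNT2B, WNT4, WNT5B, WNT6 and WNT16 the arrays overlapped, with log2 fold changes from -0.28 to 0.32.

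Of the receptors, FZD1 to FZD9 and the co-receptors LRP5 and LRP6 were tested. Their median log2 fold change was -0.18, 8 of 11 were negative, and all lay between -0.44 and 0.31. None had an unadjusted p under 0.05. LRP5 had the lowest value, with scaled intensities of 219 and 184 in vec against 153 and 143 in shpkp3-2 (log2 fold change -0.44, SE 0.19, limma adjusted p = 0.418), but with normexp background correction it was -0.23, nearer to 0 than the -0.35 of FZD1. FZD1 gave 874 and 835 in vec against 699 and 595 in shpkp3-2 (-0.41, SE 0.18, limma adjusted p = 0.450), and FZD4 gave 679 and 589 against 478 and 537. In these 3 receptors both shpkp3-2 values were under both vec values. FZD5, with 1020 and 1174 in vec against 1389 and 1318 in shpkp3-2, was the only receptor with both shpkp3-2 arrays above both vec arrays on its leading probe, but of its 2 other tested probes one gave -0.22 and the other 0.34. In the remaining receptors, FZD2, FZD3, FZD6, FZD7, FZD8, FZD9 and LRP6, the arrays overlapped. LRP6 had a log2 fold change of -0.06 with a 95% interval from -0.53 to 0.40.

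Among the secreted inhibitors, which keep Wnt ligands or their co-receptors from signalling, DKK1, DKK3 and SFRP2 were tested. DKK1, which binds the LRP co-receptors and is itself a target of the pathway, gave 46600.1 and 27916 in vec against 31112 and 31686 in shpkp3-2. The shpkp3-2 arrays lay between the vec arrays, and the log2 fold change was -0.20 (SE 0.27, 95% interval -0.87 to 0.47, limma adjusted p = 0.794). DKK3, a relative of DKK1 whose link to Wnt signalling is less direct, gave 24.1 and 17.6 in vec against 7.10 and 14.0 in shpkp3-2, with 1 of the 2 shpkp3-2 arrays not well above background. Its log2 fold change was -1.05 (SE 0.36, limma adjusted p = 0.335), with -1.76 in the first collection and -0.34 in the second, and with normexp background correction it was -0.02. SFRP2, a decoy that resembles the Frizzled receptors, gave 10.73 on both vec arrays against 15.1 and 16.3 in shpkp3-2, with 1 of the 2 vec arrays not well above background. Its log2 fold change was 0.54 (SE 0.17, limma adjusted p = 0.314) and 0.26 with normexp background correction. The DKK3 and SFRP2 probes thus lay near the background level, where the correction of the background moved both values by more than 1.5 times.

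The sequence upstream of DKK1 is shown because it was the only one of the 32 member promoters at hand that held either of 2 letter forms of the motif of the TCF and LEF factors. The 250 bases before the start of the gene were taken from RefSeq on GRCh38.p14, chr10:52314031-52314280 on the plus strand, and capitals mark CTTTGAT or CTTTGAA on either strand.
DKK1: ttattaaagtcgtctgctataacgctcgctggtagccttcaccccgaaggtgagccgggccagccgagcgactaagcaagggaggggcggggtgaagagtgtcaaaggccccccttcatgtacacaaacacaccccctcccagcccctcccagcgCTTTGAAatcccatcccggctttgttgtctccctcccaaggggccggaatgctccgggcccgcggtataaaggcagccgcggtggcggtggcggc
The share of member promoters with the motif was 3.12%, beside 6.03% of all 27305 promoters in the table. A match of these letters is a description and not a binding site, and the second letters, CTTTGAA, were added to the search after the promoters had been looked at. The match in DKK1 is of this added form. With CTTTGAT alone, 0 of the 32 member promoters held a match, beside 2.28% of all promoters.

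On their leading probes the 5 intracellular proteins that were tested carried log2 fold changes between -0.20 and 0.17, and none of these probes had an unadjusted p under 0.05. DVL1 gave 29167 and 31966 in vec against 36148 and 32331 in shpkp3-2 (log2 fold change 0.16), and its second probe gave 0.17. GSK3B, the kinase that marks beta-catenin for degradation, gave 1025 and 766 in vec against 782 and 784 in shpkp3-2 (-0.18). AXIN1 (0.17) and DVL2 (0.13) overlapped between the clones, and DVL3 (-0.20, SE 0.19) was lower on both shpkp3-2 arrays. A second probe of DVL3 gave 98.6 and 94.7 in vec against 71.6 and 69.1 in shpkp3-2 (-0.46, SE 0.17, unadjusted p = 0.0371 and adjusted p = 0.375 in limma), and on its last probe (-0.18, SE 0.20) the arrays overlapped. The nuclear factors lay closer still. TCF7L2, the main TCF factor of the intestine, had a log2 fold change of 0.12 (SE 0.18, 95% interval -0.32 to 0.56, limma adjusted p = 0.807), while its other probes gave -0.11 and -0.16. Its leading probe gave 12207 and 13086 in vec against 12981 and 14596 in shpkp3-2, while the other probes lay between 63.3 and 112. Whether these probes read the same transcripts was not tested. TCF7 gave 0.17 and TCF7L1 0.07. CTNNB1, which is not among the 51 genes, gave 7787 and 8405 in vec against 7948 and 8373 in shpkp3-2, a log2 fold change of 0.01 (SE 0.17, limma adjusted p = 0.984). Its sign was negative with normexp (-0.03), quantile (-0.07) and median (-0.06) scaling, and RNA levels say nothing of the amount or place of the protein.

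The targets were the genes closest to a readout of pathway activity, and 7 of 9 could be tested. Their median log2 fold change was -0.17, with 5 negative and 2 positive values, and AXIN2 was the only one with an unadjusted p under 0.05. AXIN2, a direct target that feeds back on the pathway, gave scaled intensities of 768 and 632 in vec against 423 and 384 in shpkp3-2. Both shpkp3-2 values were under both vec values, at 57.9% of the vec level on average. The log2 level was 0.77 ± 0.20 in vec and -0.02 ± 0.10 in shpkp3-2 (SD, n = 2 arrays each). The log2 fold change of -0.79 (SE 0.19, 95% interval -1.26 to -0.32) did not pass the limma test (adjusted p = 0.225), nor did it under any of the 14 alternatives, where it lay between -0.93 and -0.65 with adjusted p from 0.0747 to 0.812. The collections gave -0.86 and -0.72.

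AXIN2 was also read by 3 probes, shown here by their first 30 of 60 bases since they differ in how far they separate the clones.
AXIN2 leading probe: ttttgtcttaaaggtcttgagggttgacca
AXIN2 second probe: ccatccccagtttatggatatgctgcttta
AXIN2 last probe: ttcctggagagggagaaatgcgtggatacc
The second probe gave 81.1 and 74.7 in vec against 43.5 and 41.3 in shpkp3-2 (log2 fold change -0.88, SE 0.17, limma adjusted p = 0.158). The last gave 41.1 and 64.4 in vec against 47.9 and 31.3 in shpkp3-2, so that its arrays overlapped (-0.41, SE 0.31, limma adjusted p = 0.623).

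The other targets tested had log2 fold changes between -0.21 and 0.32, a difference from AXIN2 that was not tested. NKD1, an inhibitor of the DVL proteins, gave 51.3 and 53.4 in vec against 43.2 and 47.3 in shpkp3-2 (log2 fold change -0.21, SE 0.17, limma adjusted p = 0.652), and -0.04 with normexp background correction. RNF43, a ubiquitin ligase that removes Frizzled receptors from the cell surface, gave 3874 and 3430 in vec against 4538 and 4552 in shpkp3-2, with the opposite sign (0.32, SE 0.18, limma adjusted p = 0.527). Of these 3 feedback genes, AXIN2 and NKD1 thus had both shpkp3-2 arrays below vec, and RNF43 had them above. MYC, which drives proliferation, gave 16751 and 11594 in vec against 13048 and 13246 in shpkp3-2, with the shpkp3-2 arrays between the vec arrays (-0.08, SE 0.23, limma adjusted p = 0.905). CCND1, a cyclin of the G1 phase, gave 2393 and 2470 in vec against 2172 and 2076 in shpkp3-2 (-0.20, SE 0.17, limma adjusted p = 0.669), but its other probes gave 0.08 and -0.42. SOX9, a transcription factor of the crypt, gave 739 and 410 in vec against 542 and 596 in shpkp3-2 (0.05, and -0.02 with median centring, SE 0.30, limma adjusted p = 0.964), and NKD2 had -0.17 with overlapping arrays.

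**Figure D3:**
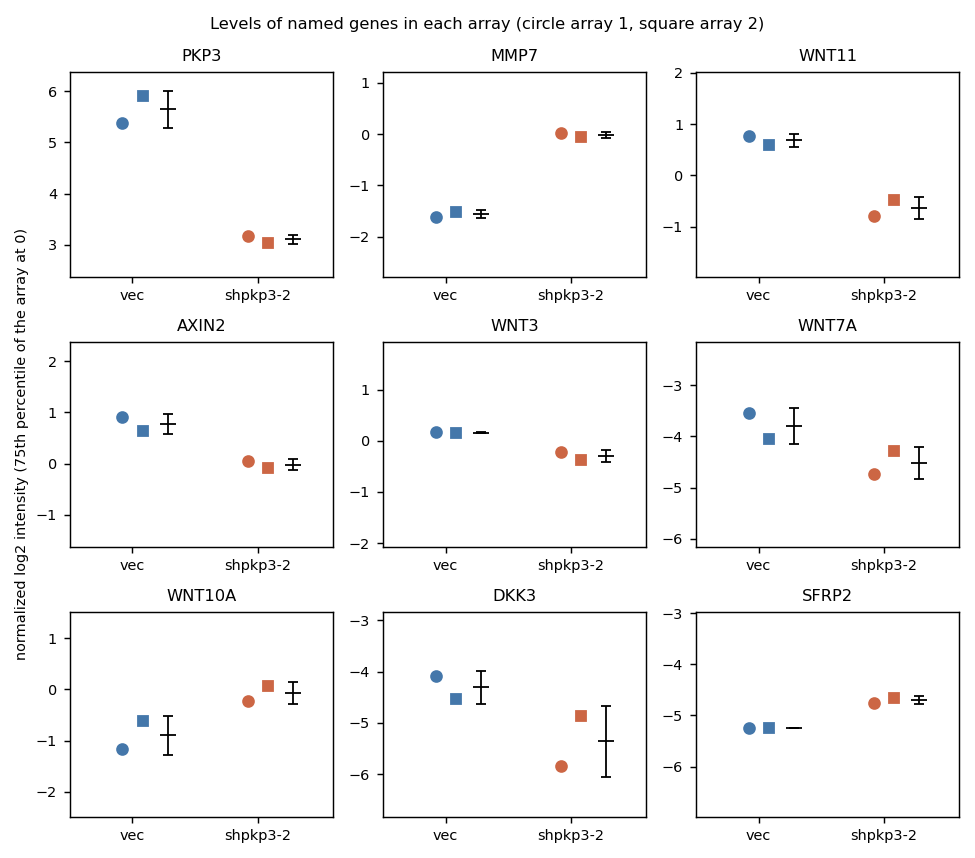
Log2 level (y axis, relative to the 75th percentile of the array; every panel spans the same range) of PKP3, of the Wnt target MMP7 and of the 7 pathway genes with an unadjusted p under 0.05, in vec (blue) and shpkp3-2 (orange). Circles are arrays 1 and squares arrays 2, and the black marks give mean ± SD of 2 arrays. In each panel the arrays of the clones do not overlap, and the gaps of WNT11 and AXIN2 are smaller than that of PKP3. The 7 pathway genes were chosen by p on these same arrays, which favours panels without overlap. One SFRP2 vec array and one DKK3 shpkp3-2 array were not well above background.

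How far the probes of one gene agreed set a limit on reading the smaller values. Of the 51 genes, 13 had more than 1 tested probe. All tested probes had the same sign in 7 of these, AXIN2, DVL1, DVL3, FZD3, WNT10A, WNT11 and WNT6, and different signs in 6, CCND1, FZD5, MYC, NKD2, TCF7L2 and WNT4. Among those with 1 sign, the second probe of FZD3 had a log2 fold change of -0.32 (SE 0.22), with both shpkp3-2 arrays below vec, and that of WNT6 -0.11 (SE 0.24). The second WNT6 probe gave 1376 and 1124 in vec against 965 and 1383 in shpkp3-2. Its leading probe was far brighter, with 49204 and 76890 against 44162 and 57778. Among those with different signs, the second probe gave -0.42 (SE 0.39) for WNT4 and 0.05 (SE 0.18) for MYC. The second probe of NKD2 gave 3322 and 3489 in vec against 4139 and 3819 in shpkp3-2, higher without overlap of the arrays (0.22, SE 0.17, limma adjusted p = 0.632). Among these 13 genes, those with the larger log2 fold changes, WNT11, WNT10A and AXIN2, thus had 1 sign. DKK3 (-1.05) and WNT7A (-0.73) had no second tested probe and could not be compared in this way. In the 6 genes with different signs the leading probe was never beyond 0.31 in size, and their probes spanned up to 0.56 on the log2 scale, in FZD5, followed by 0.50 in CCND1.

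A wider list of 88 further genes of the pathway was examined in the same fit, as the agonists of the R-spondin family, the secretion machinery, further receptors, inhibitors, intracellular proteins, nuclear factors and targets. Of these, 87 were found on the array and 71 tested. Their median log2 fold change was -0.02, with 31 positive and 40 negative values. In limma 1 of 71 passed as higher (1.41%, beside the 0.277% of all genes) and 0 as lower, beside 0.153%. This list was chosen with earlier results of these data known, and the gene that passed is MMP7, the gene the study is about. The shares given for the list are thus a description without a test. At an unadjusted p of 0.05, 4 were higher (5.63%, beside 7.63%) and 7 lower (9.86%, beside 4.52%). By the 2-fold rule 2 were higher (2.82%, beside 1.24%) and 2 lower (2.82%, beside 0.632%). Non-overlapping arrays were found for 15 genes as higher (21.1%, beside 28.4%) and 19 as lower (26.8%, beside 17.2%). They were 9 (12.7%, beside 20.8%) and 23 (32.4%, beside 23.0%) with median centring, and 13 (18.3%, beside 23.5%) and 25 (35.2%, beside 21.3%) with quantile scaling. Some of the 71 genes had an array not well above background. Of the 68 above background on all arrays, 4 were higher at an unadjusted limma p of 0.05 (5.88%, beside 6.83% of all such genes) and 6 lower (8.82%, beside 3.94%). Without overlap of the arrays, 15 of the 68 were higher (22.1%, beside 28.1%) and 18 lower (26.5%, beside 16.9%).

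MMP7, a matrix metalloprotease and a target of beta-catenin and TCF in intestinal tumors, was the gene that passed. It gave scaled intensities of 134 and 143 in vec against 416 and 394 in shpkp3-2, with no overlap. It was 2.93-fold higher in shpkp3-2 (log2 fold change 1.55, SE 0.17, 95% interval 1.12 to 1.98, limma adjusted p = 0.0399). MMP7 passed under 8 of 14 alternatives, and lost the call without shpkp3-2 1 (adjusted p = 0.132) and without shpkp3-2 2 (0.104), among others, with adjusted p from 0.000543 to 0.224 in all. Its log2 fold change stayed between 1.28 and 1.599. AXIN2 and MMP7, both targets in the textbook sense, thus had log2 fold changes of opposite sign in these clones.

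The 250 bases before the start of MMP7, chr11:102530748-102530997 on the minus strand of GRCh38.p14 from RefSeq, are shown because it is the only gene of either list that passed the test, with the same motif letters in capitals.
MMP7: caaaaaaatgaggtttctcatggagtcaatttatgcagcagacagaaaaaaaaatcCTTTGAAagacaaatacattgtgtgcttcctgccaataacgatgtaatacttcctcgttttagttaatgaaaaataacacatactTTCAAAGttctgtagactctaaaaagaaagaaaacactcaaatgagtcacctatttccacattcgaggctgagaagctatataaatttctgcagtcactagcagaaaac
The MMP7 promoter held 2 matches, one on each strand, both of the added form CTTTGAA. In the wider list 4 of 67 promoters held at least 1 (5.97%), beside the 6.03% of all promoters, and 2 of 67 with CTTTGAT alone (2.99%, beside 2.28%).

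The largest differences in the wider list were seen in the secretion machinery, the agonists and the targets. WLS, which carries Wnt proteins to the cell surface and stands on the array under its older name GPR177, gave 61.8 and 164 in vec against 403 and 505 in shpkp3-2. Both shpkp3-2 arrays lay above both vec arrays, and the log2 fold change was 2.16 (SE 0.45, limma adjusted p = 0.174, and 6.61e-06 with the RNA collection as a block). RSPO1, an agonist that keeps Frizzled receptors at the surface, gave 43.1 and 39.4 in vec against 16.6 and 14.6 in shpkp3-2 (-1.40, SE 0.18, limma adjusted p = 0.0598, and 0.00179 with the block). With normexp background correction RSPO1 had -0.30. BAMBI, a target that also dampens BMP and TGF-beta signalling, gave 27438 and 16535 in vec against 7635 and 8251 in shpkp3-2 (-1.42, SE 0.27, limma adjusted p = 0.148, and 0.00227 with the block). The limit given for the block with WNT11 holds for WLS, RSPO1 and BAMBI as well. Without vec 2, each of these 3 genes passed the limma test as well, with adjusted p of 0.0114 for WLS, 0.0362 for RSPO1 and 0.0236 for BAMBI. Over all alternatives WLS passed in 2 of 14 and RSPO1 and BAMBI in 3 of 14, and the highest adjusted p was 0.409 for WLS, 0.473 for RSPO1 and 0.396 for BAMBI. The log2 fold change of WLS was 1.46 without vec 1 and 2.87 without vec 2, and that of BAMBI -1.79 without vec 2 and -1.06 without vec 1. Further genes named by size were the target CD44 (0.69) and the coactivator CREBBP (0.50) with positive values and the targets S100A4 (-0.70) and FGF9 (-0.69) with negative values, all with limma adjusted p of 0.232 or above. The value of CREBBP was 0.06 without vec 1 and 0.94 without vec 2.

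**Figure D4:**
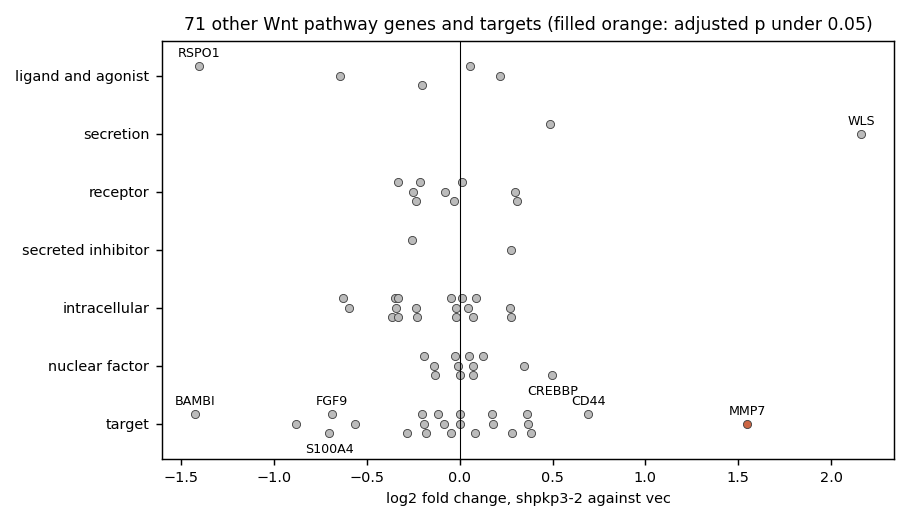
Log2 fold change, shpkp3-2 against vec, of the 71 tested genes of the wider Wnt list (x axis), grouped by role on the y axis; points are offset vertically only to separate them. The filled orange point, MMP7, is the only gene with a limma adjusted p under 0.05. WLS lies farthest to the right at 2.16, and BAMBI and RSPO1 farthest to the left at -1.42 and -1.40.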

How the data were processed

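Total RNA of vec and shpkp3-2 carried the Cy3 label on 4 single color Agilent arrays (2 per clone). The authors deposited, for each array, the output of Agilent Feature Extraction (version 9.1 per the submitters' processing notes), whose intensity is the processed signal of a spot on a linear scale after background subtraction and detrending, with no scaling between arrays. Beside it, the deposited files give uncorrected mean and local background intensities, and flags, which are other values of 0 or 1.

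Samples were grouped by the clone in their labels. From the log2 intensity the 75th percentile of the 51538 non-control spots was taken off, array by array, non-uniform spots (26 to 39 per array) were left out, and spots of a probe were averaged. Scaled intensities are these values returned to the linear scale with the 75th percentile at the mean of the 4 arrays. The comparison used lmFit and eBayes of limma 3.58.1 (R 4.3.3) without covariates on 30512 of 50238 probes, those with both arrays of a clone well above background. Adjustment by Benjamini-Hochberg was over all of them, at a threshold of 0.05. A gene was represented by its brightest probe. The fit assumes that both clones vary alike. Array data give no counts, and the number of arrays limits the precision. Tables and figures were made with Python 3.11.15, pandas 2.3.3, numpy 2.4.6, scipy 1.17.1 and matplotlib 3.10.9.

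All 51 symbols were matched by the gene name in the files, no member probe carried the accession of another symbol, and of the wider list 87 of 88 were found, some of them, such as WLS, under older names. Promoters came from a RefSeq table, which held 32 of the 51. The members, the wider list and the marker lists were chosen with earlier results of these data known. The summary of the leukocyte markers is not reported here. Genes were named by a rule: members with an unadjusted p under 0.05, past the 2-fold rule (the filter of the study's fold change table, whose functional classes used 1.5-fold for these cells) or above background in one clone alone, the known targets AXIN2, NKD1, LGR5, ASCL2, RNF43, SOX9, MYC and CCND1, and of the wider list those with adjusted p under 0.05, the 4 largest rises and 4 largest falls above background on all arrays, CTNNB1 and MMP7. The remaining members are given to account for every gene.

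By the design text of the series, arrays with the same number share an RNA collection. Taken as deviations from the clone mean, same-numbered arrays correlated at -0.199 over the probes tested. The main fit has no block, as the study compared the clones without the pairing. The fit with the block, a crossed block chosen after seeing the data, normexp correction (offset 50), quantile and median scaling, other detection filters, a floor of 5, another prior, the mean of all probes and each array left out in turn were alternatives. The procedure was tested on simulated data with known changes, where it recovered most of the larger changes and none of the smaller ones.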

Additional observations from a re-analysis of the deposited data

How the results depend on the processing

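The number of the 41 tested genes with a limma adjusted p under 0.05 was 0. It was 1 as lower, WNT11, with normexp background correction (beside 0.647% of all genes), with the replicate block (2.85%) and with a trended and robust prior (0.652%). These shares over all genes count both directions. The number as higher was 0 under every alternative run. Fits with an array left out are given with WNT11 above. The replicate block raised the share of all 20244 genes called from 0.430% to 2.85% and, besides WNT11, changed the call of WLS, RSPO1 and BAMBI only, among the genes with values given here. A crossed pairing called 64 probes as higher and 40 as lower, against 75 and 44 without a block and 503 and 338 with the block. Over all probes the calls were 109 and 64 with normexp, 42 and 32 with quantile scaling, 114 and 59 with the other prior, 25 and 21 on probes above background on all arrays, 10 and 8 without a filter, 1 and 1 with the weaker background flag, and up to 400 and 202 without vec 2. Non-overlapping genes as higher numbered 5 with median centring against 8 (12.2%, beside 20.8% of all genes), and ranged from 10 to 16 with an array left out (16 without vec 1), and those as lower from 13 to 23 (23 without vec 2), since fewer arrays overlap less often. The 2-fold rule was met by 1 gene as lower, beside 0.632% of all genes. A 1.5-fold rule was met by 1 gene as higher and 2 as lower, beside 4.28% and 2.41% of all genes. The median of the 41 genes was 0.0034 with normexp, 0.03 without vec 1 and 0.02 without shpkp3-2 1, so that its sign is not settled.

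The cause of the changes of sign was not tested. With normexp, WNT1 had 0.072, WNT5B 0.011, FZD8 0.049 and CTNNB1 -0.028, CTNNB1 had -0.072 with quantile scaling, and with median centring WNT4 had -0.044, WNT16 -0.014, SOX9 -0.023 and CTNNB1 -0.058. With the mean of all probes, a value without a test, WNT4 had -0.20, TCF7L2 -0.050 and NKD2 0.027. Leaving out single arrays changed the sign in 17 genes, whose log2 fold changes ranged from -0.24 to 0.29 (WNT4), -0.66 to 0.20 (WNT5B), -0.61 to 0.038 (WNT6), -0.47 to 0.58 (WNT16), -0.22 to 0.17 (FZD3), -0.46 to 0.96 (FZD6), -0.89 to 0.027 (FZD7), -0.43 to 0.068 (FZD8), -0.18 to 0.049 (LRP6), -0.57 to 0.17 (DKK1), -0.21 to 0.46 (DVL2), -0.13 to 0.47 (AXIN1), -0.39 to 0.031 (GSK3B), -0.81 to 0.47 (NKD2), -0.35 to 0.18 (MYC), -0.38 to 0.47 (SOX9) and -0.043 to 0.067 (CTNNB1). The lone array of a clone is taken to vary like the other clone in these fits. Of the 41 genes, the value moved by over 1.5 times or changed sign in 17 with normexp, 13 with median centring, 6 with quantile scaling, 6 with the mean of all probes and 28 with an array left out. Of 753 values of single genes under the alternatives, 697 kept direction and call, 35 changed sign, 12 gained and 8 lost a call, and 1 without a test, FZD5 with the mean of all probes, moved by more than the spread between arrays. For values with a test this tally goes by sign and call and not by size. With normexp, for example, RSPO1 moved from -1.40 to -0.30 and WNT7A from -0.73 to -0.14.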
